A study of Mus musculus with 2 samples.

Results

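The 10 genes described here belong to the pathway of the coactivator YAP and its TEAD partners: Yap1, Wwtr1, Tead1, Cyr61, Ctgf, Ankrd1, Amotl2, Ajuba, Lats2 and Ptpn14. They were taken by symbol from the 31053 genes counted in each library, and all 10 were found. Cyr61 and Ctgf are older names that the files use for Ccn1 and Ccn2. In the GRCm38 annotation Cyr61 lies at chr3:145646976-145649981 (minus strand), Ctgf at chr10:24595442-24598683 (plus strand), Ankrd1 at chr19:36111961-36120099 (minus strand) and Amotl2 at chr9:102716672-102733418 (plus strand). Yap1 lies at chr9:7931999-8004596 (minus strand), and the other 5 on chromosomes 1, 3, 7 and 14. Single cells of the mouse mammary gland (strain C57BL/6), sorted as CD24highCD29+, were measured with the 10x Genomics 3′ kit. There were 2 libraries, 1 with the genotype label WT and 1 with the genotype label Fgd5-ko. Fgd5 encodes an exchange factor for the small GTPase Cdc42, and the series text describes a comparison of basal epithelial cells with and without it. The title of the second library has the word cko. Neither the cell type in which the gene was deleted, the deleted part, the age, the number of animals pooled nor the meaning of P4 in both titles is given in the sources used here.

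YAP (Yap1) and its paralogue TAZ (Wwtr1) are coactivators that cannot bind DNA themselves and act through TEAD transcription factors such as Tead1. The Hippo kinase LATS2 (Lats2) phosphorylates them and keeps them out of the nucleus, and proteins of junctions and the actin cytoskeleton feed into this control. Cyr61, Ctgf and Ankrd1 are widely used readouts of YAP and TEAD activity, while Amotl2, Ajuba, Lats2 and Ptpn14 are both regulators of the pathway and known targets of it. In the mammary gland YAP and TAZ have been linked to the basal, myoepithelial state.

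TEAD factors bind the letters GGAATG or, on the other strand, CATTCC. RefSeq (GRCm38.p6) windows of the 250 bases before a RefSeq transcript start were found for 8 of the 10 genes, that is, all but Ctgf and Tead1. Both strands were searched for these 6 letters. The motif was present in a window of 7 of these 8 genes, and in 8 of their 10 windows. Over all entries 12.6% of 32851 windows and 14.4% of 27025 genes held it. Lats2 had no match in its windows, whose RefSeq starts lie 12265 and 23970 bases inside the GENCODE gene. The bases before the outer end of that gene were not searched. A match describes letters only and is not evidence of binding. Shown are the windows of Cyr61 (chr3:145649986-145650235, minus strand), Ankrd1 (chr19:36119845-36120094, minus strand), Amotl2 (chr9:102717554-102717803, plus strand) and Ajuba (chr14:54577662-54577911, minus strand), the first 2 as readout genes whose values differ most from each other below and the last 2 as regulators that moved in opposite directions between the libraries. Each is written 5′ to 3′ on the strand of its gene and ends at the base before the RefSeq start, with the motif in capitals. This start need not be the outer end of the GENCODE gene given above: it lies 1132 bases inside that gene for Amotl2 and 255 bases inside for Ankrd1, and just before its outer end for Cyr61 and Ajuba.
Cyr61: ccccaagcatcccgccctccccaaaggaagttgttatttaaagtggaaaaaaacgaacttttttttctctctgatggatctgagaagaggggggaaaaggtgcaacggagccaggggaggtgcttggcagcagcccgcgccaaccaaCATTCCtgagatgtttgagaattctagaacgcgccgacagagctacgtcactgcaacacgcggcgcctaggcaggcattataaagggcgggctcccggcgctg
Ankrd1: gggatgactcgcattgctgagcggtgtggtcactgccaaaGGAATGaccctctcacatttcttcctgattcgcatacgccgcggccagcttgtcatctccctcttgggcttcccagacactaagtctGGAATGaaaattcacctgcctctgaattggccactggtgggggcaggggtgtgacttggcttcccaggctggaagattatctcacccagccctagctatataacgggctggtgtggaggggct
Amotl2: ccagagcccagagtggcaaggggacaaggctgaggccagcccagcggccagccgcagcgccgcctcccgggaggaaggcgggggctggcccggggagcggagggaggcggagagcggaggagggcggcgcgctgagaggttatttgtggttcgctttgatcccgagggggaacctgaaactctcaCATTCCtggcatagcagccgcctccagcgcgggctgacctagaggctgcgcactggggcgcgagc
Ajuba: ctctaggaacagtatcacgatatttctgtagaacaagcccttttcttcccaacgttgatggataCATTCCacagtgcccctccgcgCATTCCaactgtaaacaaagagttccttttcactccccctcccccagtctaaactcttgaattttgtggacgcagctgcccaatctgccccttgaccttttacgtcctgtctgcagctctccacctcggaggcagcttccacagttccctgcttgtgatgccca

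Counted from these RefSeq starts, the match in Cyr61 lay 103 bases before the start and that in Amotl2 65 bases before it. Ankrd1 had a pair of matches, 210 and 123 bases before the start, and so had Ajuba, at 186 and 164 bases. Single matches stood 141 bases before the start of Yap1 and 146 bases before that of Ptpn14. Wwtr1 has 2 overlapping windows in the table, and they share 1 match.

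There were 60566053 UMIs (counted molecules) over 10735 barcodes in the library labelled WT and 136697801 over 8798 barcodes in that labelled Fgd5-ko. A cell table from the authors lists 6588 and 6064 barcodes, at a median of 4954 and 15712 UMIs per cell. Clusters with basal markers made up 96.98% and 95.89% of the listed cells (6389 and 5815 cells). All 9 basal markers, among them Krt5, Krt14 and Acta2, were detected in both libraries, and together they stood at 18110 and 14160 CPM (CPM being a gene's counts scaled to a fixed total of the summed UMIs of a class). Fgd5 went against its label, at 0.835 CPM (30 UMIs) and 4.08 CPM (412 UMIs) in basal-like cells, a log2 ratio of 2.29 (1.75 to 2.87). Since 3′ tags outside a deleted part check nothing, ratios below have the library labelled Fgd5-ko as numerator and that labelled WT as denominator, and none of them is a ratio for loss of Fgd5. The libraries share 34 barcode sequences, 18 of them listed in both. With 1 library per group there is no replicate check and no test. Intervals in brackets are exact 95% intervals for counting error only, and a gene counts as higher or lower at 1.5-fold or more, among genes with at least 20 UMIs over both libraries.

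In basal-like cells the coactivators and Tead1 were almost level between the libraries, while the readout genes went separate ways: Cyr61 was lower, and Ctgf and Ankrd1 higher, under the Fgd5-ko label, with only Ankrd1 past 1.5-fold. Of the 10 genes 1, Ankrd1, was at least 1.5-fold higher and 0 were as much lower. Over the 15039 genes measured, 26.7% were higher and 10.7% lower by this limit. At 2-fold, 0 of the 10 genes were higher and 0 lower, against 12% and 5.54% of all genes. The median log2 ratio was 0.10 for the 10 genes and 0.23 for all genes. With TMM scaling the median of all genes was 0.06 and the shares were 19.2% and 14.6%.

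Yap1 stood at 47.9 CPM (45.7 to 50.3) and 52.4 CPM (WT label first, as in every pair of values), a log2 ratio of 0.13 (0.05 to 0.21). Wwtr1 stood at 77.2 and 87.0 CPM, a log2 ratio of 0.17 (0.11 to 0.23). Tead1 stood at 105 and 109 CPM, a log2 ratio of 0.06 (0.00 to 0.11). These 3 ratios lay close to 0, and each changed its sign in at least 1 of the other scalings or choices of cells. The upstream kinase gene Lats2 was likewise level, at 14.9 and 14.4 CPM (log2 ratio -0.04, -0.19 to 0.10).

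Of the genes for junction and actin-linked regulators, Amotl2, an angiomotin family member that holds YAP in the cytoplasm, stood at 29.4 and 21.4 CPM, a log2 ratio of -0.45 (-0.56 to -0.35). Ajuba, a LIM domain protein that inhibits LATS kinases, went the other way, at 23.1 and 32.7 CPM (log2 ratio 0.50, 0.39 to 0.61). Ptpn14, a phosphatase that binds YAP, was at 79.0 and 68.0 CPM (log2 ratio -0.22, -0.28 to -0.15). Amotl2 and Ajuba kept their signs over the 14 settings tried, with ranges of -0.66 to -0.21 and 0.32 to 0.60. Ptpn14 ranged from -0.39 to 0.03.

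Cyr61, a secreted matrix-associated protein of the CCN family, was counted at 13226 UMIs in the library labelled WT and 26739 in the library labelled Fgd5-ko. These are 368 CPM (362 to 375) and 265 CPM, a log2 ratio of -0.48 (-0.51 to -0.45). Ctgf, the second CCN protein here, was counted at 14266 and 52375 UMIs, or 397 CPM (391 to 404) and 518 CPM. Its log2 ratio was 0.38 (0.36 to 0.41). The 2 related genes thus differed in direction, in basal-like cells that the authors listed and likewise in the 212 and 392 basal-like barcodes outside their table, where Cyr61 was at 312 and 258 CPM and Ctgf at 214 and 426 CPM. The log2 ratios there were -0.28 (-0.37 to -0.18) and 1.0 (0.88 to 1.11). Over the 14 settings Cyr61 ranged from -0.65 to -0.29 and Ctgf from 0.17 to 0.91.

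Ankrd1, a nuclear and sarcomeric ankyrin repeat protein, was rare. It was counted at 226 UMIs (6.29 CPM, 5.50 to 7.17) and 1025 UMIs (10.2 CPM), a log2 ratio of 0.69 (0.48 to 0.90). Only 85 of 6389 and 328 of 5815 basal-like cells had a UMI of it, yet single cells held up to 25 and 41 UMIs. Most of its UMIs lay in 1 cluster of each library, A5 under the Fgd5-ko label and A4 under the WT label, both described below. Without both clusters the log2 ratio was 1.01. Leaving out A5 alone, a cluster led by Ankrd1 and almost all from the numerator library, gave -0.71. Both choices were made after the data were seen, and the direction depended on them.

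**Figure D1:**
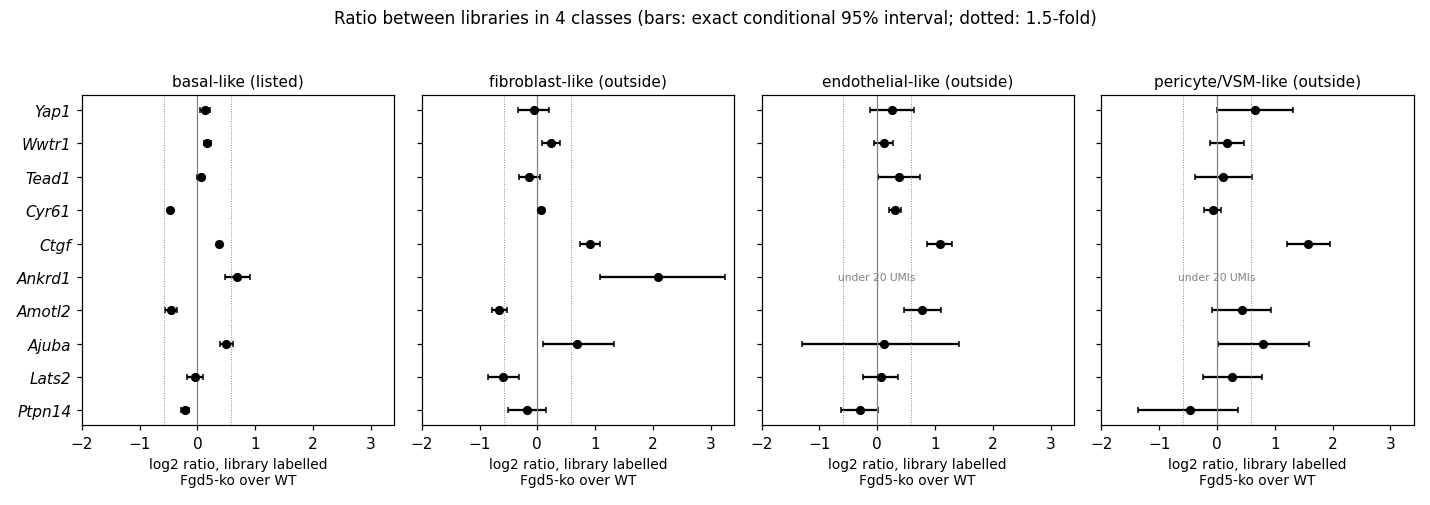
Log2 ratio of CPM, labelled Fgd5-ko over labelled WT (x axis), for each of the 10 genes (y axis) in 4 cell classes, with exact conditional 95% intervals as bars and dotted lines at 1.5-fold. Ctgf lies to the right of 0 in each panel, at 0.38 in basal-like, 0.91 in fibroblast-like (0.25 without cluster B12), 1.08 in endothelial-like (0.09 without cluster B19) and 1.57 in pericyte and vascular smooth muscle-like cells, whereas Cyr61 lies to the left in basal-like cells (-0.48) and to the right in endothelial-like cells (0.31, or -0.11 without B19).

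The share of basal-like cells with a UMI gave the same order once each cell was thinned to 2000 UMIs, which leaves out 61 and 0 shallower cells. Ctgf was then found in 34.7% (33.5 to 35.9) and 45.9% (44.6 to 47.2) of cells. For Cyr61 the shares were 35.6% (34.4 to 36.8) and 30.03% (28.8 to 31.2). Amotl2 was found in 5.75% and 4.06% of cells, Ajuba in 4.20% and 6.29%, and Ankrd1 in 0.632% (0.452 to 0.860) and 1.496% (1.20 to 1.84). Without thinning, at median depths of 4950 and 15978 UMIs, the shares of Cyr61 were 52.9% and 69.5% and those of Ctgf 50.6% and 80.2%, so the order of the unthinned Cyr61 shares went against its CPM. No class here is known to lack these genes. The lowest thinned share of Ctgf and of Cyr61 among classes was in the 53 listed hormone-sensing luminal-like cells of the library labelled WT (median 12060 UMIs), at 1.89% (0.0478 to 10.1) and 9.43% (3.13 to 20.7).

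Cells with Cyr61 more often had Ctgf. Among thinned cells of the library labelled WT, Ctgf was found in 41.9% (39.9 to 44.0) of the 2252 cells with Cyr61 and in 30.7% (29.3 to 32.2) of the 4076 without. Corresponding shares were 56.1% (53.7 to 58.4) of 1746 and 41.6% (40.0 to 43.1) of 4069 in the library labelled Fgd5-ko. Of the 87 cells with Ankrd1 in that library, 74.7% (64.3 to 83.4) had Ctgf and 57.5% (46.4 to 68.0) had Cyr61, against 45.5% and 29.6% of the other cells. Among cells labelled WT, Ankrd1 was found in 40, of which 62.5% (45.8 to 77.3) had Ctgf and 35.0% (20.6 to 51.7) had Cyr61, against 34.5% and 35.6% of the others. For the coactivators and Tead1 the differences were smaller. Ctgf was found in 33.5% (29.6 to 37.5) of cells with Yap1 and 34.8% (33.6 to 36.1) of cells without it under the WT label, and in 48.8% (44.6 to 53.1) and 45.6% (44.2 to 47.0) under the Fgd5-ko label. For cells with and without Wwtr1 the shares with Ctgf were 38.9% (35.7 to 42.1) and 34.0% (32.8 to 35.3) under the WT label and 47.2% and 45.7% under the Fgd5-ko label. For cells with and without Tead1 they were 35.7% and 34.5% under the WT label and 49.4% (46.4 to 52.4) and 45.1% (43.7 to 46.5) under the Fgd5-ko label. Cells of a library are not replicates, so these shares are a description.

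In the library labelled Fgd5-ko the readouts differed more than the coactivators and Tead1 among clusters of listed basal-like cells. Clusters are given here by number and leading genes. They were formed from variable genes of these same data, so their values are descriptions. Almost every cluster held cells of 1 library. Among the 5 clusters of the library labelled Fgd5-ko with at least 50 cells, Yap1 lay between 43.6 and 55.7 CPM and Tead1 between 101 and 117 CPM, highest over lowest 1.28 and 1.16. Over the same clusters Ctgf ran from 326 to 1109 CPM, Cyr61 from 68.4 to 404 CPM, Amotl2 from 6.84 to 41.9 CPM and Ankrd1 from 2.51 to 61.2 CPM. The readouts thus spread over 3.4-fold for Ctgf, 5.91-fold for Cyr61 and 24.4-fold for Ankrd1. Among the regulators Amotl2 spread over 6.13-fold, whereas Ajuba, Lats2 and Ptpn14 spread over 2.08-fold, 1.81-fold and 1.69-fold.

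Cluster A5, 957 cells led by Slpi, Gm8797 and Ankrd1, was highest among these 5 clusters for 9 of the 10 genes, the exception being Tead1. It held 16.5% of the basal-like cells of its library and 11% of their UMIs, but 680 of the 1025 Ankrd1 UMIs (66.3%) and 23.5% of the Ctgf UMIs. Cluster A6, 907 cells with Srxn1 and Arl4d among its leading genes, was lowest for Cyr61, Ctgf, Amotl2, Ajuba and Ptpn14. It held 13.3% of UMIs but 3.44% of the Cyr61 UMIs and 4.25% of the Amotl2 UMIs. Yap1 stood at 55.7 CPM in A5 and 51.3 CPM in A6, Wwtr1 at 112 and 90.5 CPM, and Tead1 at 112 CPM in both, so these 3 genes differed less between A5 and A6 than Cyr61 and Ctgf did. Ankrd1 stood at 4.17 CPM in A6 and was lowest in A3, at 2.51 CPM. The summed level of 18 immediate early genes moved with these clusters, at 64810 CPM in A5 and 11150 CPM in A6, the highest and the lowest of the 5. Median depth moved too, at 10275 UMIs in A5 and 13676 in A6 against 16073.5 to 25644.5 in the others. The part of either in these values was not tested.

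The 6 clusters of the library labelled WT with at least 50 cells gave a partly similar picture. Highest over lowest was 12.7 for Ctgf, 47.5 for Ankrd1 and 2.76 for Cyr61. It was 2.39 for Yap1, 3.29 for Wwtr1 and 4.3 for Tead1, so Cyr61 spread less there than Wwtr1 and Tead1. For Ctgf, Yap1, Wwtr1 and Tead1 the lowest value was that of 1 cluster, A12, described below. Their medians over the 6 clusters were 344, 46.7, 72.9 and 95.45 CPM, against highest values of 536, 54.8, 92.3 and 120 CPM. Cluster A4, 1348 cells with Polr2l and mt-Nd4l among its leading genes, held 174 of the 226 Ankrd1 UMIs (77.0%, from 24.0% of all UMIs) and had the highest Ctgf level (536 CPM). Cyr61 and Amotl2 were highest in cluster A2, led by Gm26532 and Sfrp1, at 572 and 38.2 CPM, with A4 at 360 and 36.0 CPM. Cluster A12, 85 cells led by Ly6d and BC100530, stood apart by its low Ctgf (42.0 CPM), Wwtr1 (28.03 CPM, 17.6 to 42.4), Tead1 (28.03 CPM) and Yap1 (22.9 CPM) while its Cyr61 was 368 CPM. Its 9 basal markers were all found in at least 10% of cells, but they summed to 7635 CPM, against 14840 to 25630 CPM in the other 5 clusters of that library. Its summed endothelial markers stood at 56.1 CPM, above the 13.4 to 22.1 CPM of those clusters, with Kdr at 0. The part of either in its values was not tested.

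**Figure D2:**
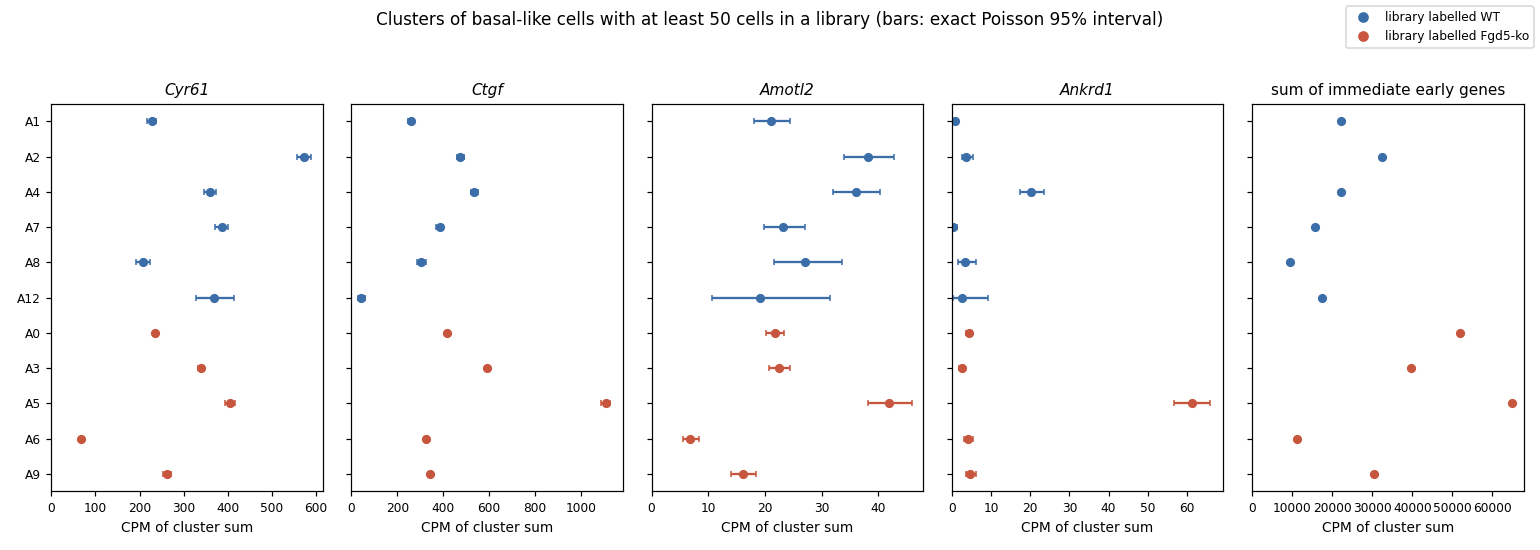
CPM of summed UMIs (x axes) of Cyr61, Ctgf, Amotl2, Ankrd1 and the sum of 18 immediate early genes in 11 clusters of listed basal-like cells (y axis), by library, with exact Poisson 95% intervals as bars. Cluster A5 has the highest Ctgf (1109 CPM) and Ankrd1 (61.2 CPM) of all, and cluster A6 the lowest Cyr61 (68.4 CPM) and Amotl2 (6.84 CPM).

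The levels of Ctgf and Ankrd1 moved with depth in the library labelled Fgd5-ko. When the basal-like cells labelled Fgd5-ko were split by UMIs into 4 groups of like size, Ctgf stood at 763, 528, 509.5 and 438 CPM from the shallowest to the deepest and Ankrd1 at 23.3, 12.1, 7.33 and 6.67 CPM. Yap1 ran from 55.1 to 51.1 CPM and Tead1 from 103.5 to 114 CPM over the same groups. Among cells labelled WT Ctgf was at 407, 403, 447 and 360 CPM and Ankrd1 at 2.72, 5.36, 8.71 and 6.51 CPM, so neither fell steadily there and Ankrd1 was lowest in the shallowest cells. Restricting both libraries to cells of 4000 to 12000 UMIs (4477 and 1452 cells) gave log2 ratios of 0.91 for Ctgf, 1.80 for Ankrd1 and -0.29 for Cyr61. Under the Fgd5-ko label this range kept mainly the shallowest of the 4 groups (3634 to 11962 UMIs). Cluster A5 had the lowest median depth of the clusters of that library compared above. The part of A5 in these ratios was not tested.

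Across cell classes the genes had separate patterns. In the library labelled WT, where 8 classes had at least 50 barcodes, Ctgf was highest in listed basal-like cells (397 CPM), followed by basal-like cells outside the table (214 CPM) and luminal progenitor and alveolar-like cells (102.5 CPM). Pericyte and vascular smooth muscle-like, fibroblast-like and endothelial-like cells followed at 63.3, 56.2 and 55.2 CPM and did not differ beyond their intervals. Lowest were the listed hormone-sensing luminal-like cells, at 11.98 CPM (4.82 to 24.7). Tead1 had a similar top, at 109.6 CPM (outside the table) and 105 CPM (listed) in basal-like cells and 65.9 CPM in fibroblast-like cells.

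Cyr61 had another order. It was highest in fibroblast-like cells, at 996 CPM (973 to 1019), then in pericyte and vascular smooth muscle-like cells at 638 CPM and in listed basal-like cells at 368 CPM. Basal-like cells outside the table, luminal progenitor and alveolar-like and endothelial-like cells stood at 312, 303 and 297 CPM, and neighbours in that order had overlapping intervals. Amotl2 was also highest in fibroblast-like cells, at 150.0 CPM (141 to 159), and its other classes lay between 8.55 and 45.9 CPM.

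Wwtr1 and Lats2 were highest outside the epithelium. Wwtr1 stood at 143 CPM in endothelial-like and 141 CPM in pericyte and vascular smooth muscle-like cells. Luminal progenitor and alveolar-like cells followed at 89.7 CPM (67.75 to 116.5). Fibroblast-like cells at 78.8 CPM and listed basal-like cells at 77.2 CPM had intervals that overlap theirs. Hormone-sensing luminal-like cells outside the table were at 33.9 CPM. Lats2 stood at 50.1, 44.5 and 37.0 CPM in pericyte and vascular smooth muscle-like, endothelial-like and fibroblast-like cells and at 14.9 CPM in listed basal-like cells. The pericyte and vascular smooth muscle-like values come mostly from cluster B6, which held 191 of the 202 Wwtr1 UMIs and 68 of the 72 Lats2 UMIs and had endothelial markers at 4030 CPM. The other cluster of that class, B18 (68 barcodes, endothelial markers at 691 CPM), had Wwtr1 at 47.5 CPM (23.7 to 85.0) and Lats2 at 17.3 CPM (4.71 to 44.2). Yap1 had another order than Wwtr1. In basal-like cells outside the table and listed ones Yap1 was at 50.3 and 47.9 CPM. Wwtr1 was at 51.4 CPM (44.1 to 59.6) and 77.2 CPM there. In fibroblast-like, pericyte and vascular smooth muscle-like and endothelial-like cells Yap1 was at 31.1, 26.4 and 26.1 CPM.

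Ajuba and Ptpn14 were highest in basal-like cells. Ajuba was at 23.1 CPM in listed basal-like and 18.1 CPM (11.8 to 26.5) in pericyte and vascular smooth muscle-like cells, whose intervals overlap, and at 5.00 CPM in fibroblast-like and 2.61 CPM in endothelial-like cells. Ptpn14 was at 79.0 CPM in listed basal-like, 48.6 CPM in endothelial-like and 4.80 CPM (0.991 to 14.04) in luminal progenitor and alveolar-like cells. For Ankrd1 the classes other than listed basal-like cells had at most 10 UMIs each in this library. It had 0 UMIs in endothelial-like cells, which allows up to 0.460 CPM, and in the listed luminal progenitor and alveolar-like and hormone-sensing luminal-like cells, which allows up to 4.80 and 5.13 CPM (3 counts per class, a one-sided limit that lies below the upper ends of the intervals drawn in the plot of levels by class).

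**Figure D3:**
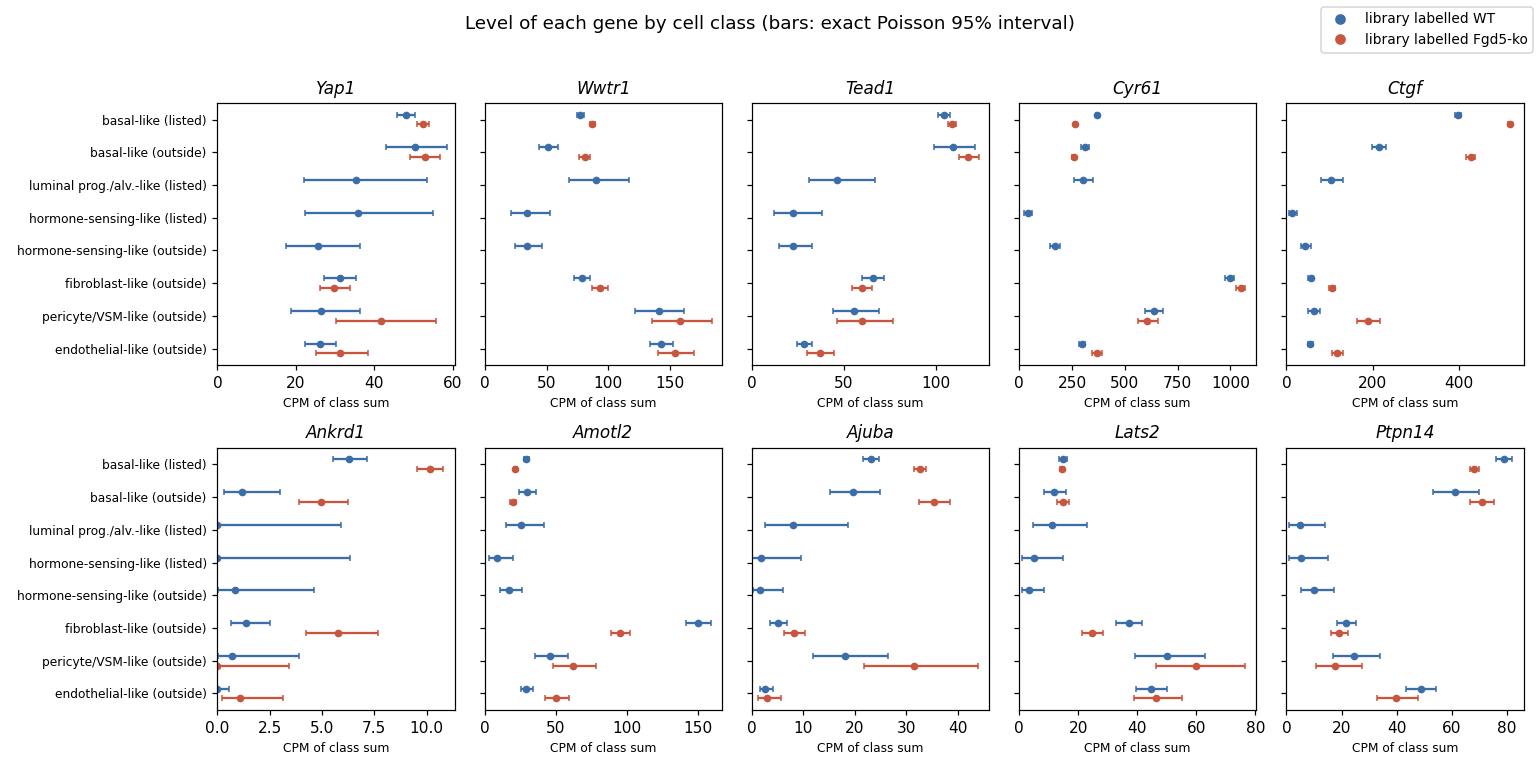
CPM of summed UMIs (x axes, a scale for each gene) of the 10 genes in cell classes with at least 50 barcodes (y axis) in each library, with exact Poisson 95% intervals as bars. Cyr61 and Amotl2 are highest in fibroblast-like cells (996 and 150.0 CPM in the library labelled WT), Wwtr1 and Lats2 in vessel-associated classes, and Ctgf, Tead1, Ajuba and Ptpn14 in basal-like cells.

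Outside the basal compartment the summed Ctgf level was higher in the library labelled Fgd5-ko in each of 3 classes, but in 2 of them the difference was within counting error without 1 cluster. In fibroblast-like cells Ctgf stood at 56.2 and 105 CPM (log2 ratio 0.91, 0.74 to 1.08). Cluster B12 held 182 of its 416 UMIs and 567 of its 860 UMIs, and bore basal markers at 7300 and 7765 CPM, against 134 to 229 CPM in the other fibroblast-like clusters with at least 50 barcodes of a library. The smaller fibroblast-like cluster B22 (38 and 44 barcodes) bore basal markers at 3038 and 1976 CPM. Without B12 the levels were 37.99 and 45.2 CPM (0.25, 0.00 to 0.51). Without B12 and B22 they were 36.8 and 43.55 CPM (0.24, -0.02 to 0.51). In endothelial-like cells Ctgf stood at 55.2 and 117 CPM (1.08, 0.86 to 1.30). Cluster B19, led by Rbp7, has 2 barcodes of the library labelled WT and 96 of the library labelled Fgd5-ko and held 209 of the 330 Ctgf UMIs of the latter. Without it the levels were 55.3 and 58.7 CPM (0.09, -0.22 to 0.39). In pericyte and vascular smooth muscle-like cells Ctgf stood at 63.3 and 188 CPM (1.57, 1.21 to 1.95).

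Cyr61 was near level in fibroblast-like cells, at 996 and 1048 CPM (0.07, 0.03 to 0.12), and in pericyte and vascular smooth muscle-like cells, at 638 and 607 CPM (-0.07, -0.22 to 0.07). It was higher by less than 1.5-fold in endothelial-like cells, at 297 and 369 CPM (0.31, 0.20 to 0.42), and at 298 and 276 CPM without B19 (-0.11, -0.25 to 0.03). The median log2 ratio of all genes was 0.05 in fibroblast-like and 0.11 in endothelial-like cells.

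Amotl2 had a lower level in the fibroblast-like cells labelled Fgd5-ko, at 150.0 and 95.1 CPM (-0.66, -0.79 to -0.52), and a higher one in endothelial-like cells, at 29.3 and 50.3 CPM (0.78, 0.46 to 1.10). Lats2 was lower in fibroblast-like cells, at 37.0 and 24.7 CPM (-0.59, -0.86 to -0.32). Without B12 the ratios in fibroblast-like cells were -0.55 for Amotl2 and -0.48 for Lats2. Ankrd1 in fibroblast-like cells rested on 10 and 47 UMIs (2.09, 1.09 to 3.24), of which B12 held 1 and 24. Without B12 its log2 ratio was 1.28 (0.11 to 2.58). Counted by the 1.5-fold limit, 3 of 10 genes were higher and 2 lower in fibroblast-like cells (all genes 19.1% and 12.8%), and 1 higher and 0 lower without B12 (all genes 17.4% and 13.9%). The counts were 2 and 0 of 9 in endothelial-like cells (18.0% and 11.5%), 1 and 0 without B19 (17.1% and 13.7%), and 3 and 0 of 9 in pericyte and vascular smooth muscle-like cells (20.9% and 11.2%). In basal-like barcodes that the authors did not list 4 of 10 were higher and 0 lower (31.0% and 9.1%).

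The classes mix their clusters differently in each library, so values within a cluster with at least 50 cells of each library were compared too. Amotl2 had negative ratios in each of 3 fibroblast-like clusters, B1 (led by Scg3), B12 and B15 (both led by Sfrp5), with log2 ratios of -0.54, -1.27 and -0.86. Cyr61 was not of 1 sign there: it stood at 749 and 1393 CPM in B1 (0.89, 0.79 to 1.0), at 764 and 517 CPM in B12 (-0.56) and at 358 and 264 CPM in B15 (-0.44). Cluster B12 bears both fibroblast and basal markers, as given above, and the signs of its Cyr61, Ctgf and Amotl2 ratios were those of listed basal-like cells. The signs for Cyr61 and Amotl2 were the same in B15, which had basal markers at only 229 and 201 CPM. The part of basal RNA in the values of B12 was not tested. Over the fibroblast-like class the sign of the Cyr61 ratio changed with 1 cluster: it was -0.20 without B1 and -0.13 without B8, which has 3 and 221 barcodes, and 0.18 without B12. Ctgf was higher in B12 (1.20, 0.96 to 1.45), had an interval that includes 0 in B1 (0.38, -0.17 to 0.95) and B15 (-0.03), and was higher in the pericyte-like cluster B6 (68.0 and 195 CPM; 1.52, 1.13 to 1.92). In the endothelial-like cluster B4 (led by Car4) Cyr61 was at 219 and 336 CPM (0.62, 0.28 to 0.95), Amotl2 at 48.9 and 87.7 CPM (0.84, 0.14 to 1.56) and Ctgf at 41.0 and 37.6 CPM (-0.13, -1.08 to 0.80). In the other pericyte-like cluster, B18 (68 and 32 barcodes), Cyr61 was at 976 and 536 CPM (-0.86, -1.20 to -0.53), against 0.12 in B6. Cluster B6 bears more endothelial than pericyte marker UMIs, and its name rests on its leading genes Kcnj8, Abcc9 and Rgs5. Of all genes in B12, 21.8% were at least 1.5-fold higher and 13.4% lower.

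The other genes of the pathway were read from lists. Over all genes measured in listed basal-like cells 26.7% were higher and 10.7% lower, with a median log2 ratio of 0.23. Of 14 genes for core kinases and scaffolds (the lists include the 10 genes), 1 was higher and 0 lower in listed basal-like cells, with a median log2 ratio of 0.30. The 1 that was higher is Taok3 (9.52 and 18.6 CPM), an upstream kinase, named after its value was seen. Sav1, the scaffold of the Hippo kinases, was at 30.1 and 40.0 CPM (0.41, 0.31 to 0.51), Lats1 at 24.7 and 33.3 CPM (0.43) and the kinase gene Map4k4 at 45.6 and 64.6 CPM (0.50). Of 8 measured genes for coactivators, TEAD and VGLL factors, 2 were higher and 0 lower (median 0.15; Vgll1 was below 20 UMIs). Vgll4, which competes with YAP for TEAD, stood at 34.9 and 79.5 CPM (1.19, 1.10 to 1.28), and Tead3 at 17.9 and 29.1 CPM (0.70, 0.58 to 0.83). Of 13 junction and actin-linked inputs 0 were higher and 0 lower (median 0.15).

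Of 24 measured target genes, 3 were higher and 3 lower (all genes 26.7% and 10.7%), with a median of 0.04 against 0.23 for all genes. Without the 10 genes described here, 2 of 17 were higher and 3 lower. The lower ones included Myof, a membrane repair protein, at 34.8 and 16.7 CPM (-1.06, -1.16 to -0.95), and Igfbp3, a secreted binding protein of insulin-like growth factors, at 293 and 161 CPM (-0.86, -0.90 to -0.83). Highest was Birc5, a survivin gene that is also a mitotic gene, at 7.38 and 40.6 CPM (2.46). Without the cluster led by cell-cycle genes, which holds cells of the library labelled Fgd5-ko only, it was at 7.38 and 4.08 CPM (-0.85, -1.09 to -0.62).

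Immediate early genes and actin genes were read beside them, since Cyr61 and Ctgf also respond to serum and to SRF. Of 18 immediate early genes 11 were higher and 0 lower (median 0.72), with a summed level of 22070 and 41670 CPM. Of all genes, 26.7% were higher and 10.7% lower. Btg2 was at 741 and 3111 CPM (2.07), Zfp36 at 542 and 2167 CPM (2.0) and Ier2 at 810 and 3021 CPM (1.90). Of 13 actin and SRF target genes 0 were higher and 3 lower (median -0.33): Tagln at 7020 and 3147 CPM (-1.16), Tpm2 at 3489 and 1949 CPM (-0.84) and Myl9 at 1409 and 923 CPM (-0.61). Myh9 (153.9 and 223.2 CPM) and Cnn2 (152.6 and 216.6 CPM) went the other way. So did Vcl (131.3 and 185.7 CPM) and Actg1 (2994 and 3744 CPM). These rises stayed below the limit for a higher gene, and the remaining genes of the list stood lower. Tagln, Tpm2 and Myl9 were lower and 11 of the 18 immediate early genes higher in the same library. Cyr61 stood lower and Ctgf higher in it, each by less than 1.5-fold. The immediate early genes Jund (1672 and 1156 CPM), Klf2 (160.5 and 131.0 CPM) and Ier3 (1690 and 1620 CPM) stood lower, within that limit. The part of cell handling or of immediate early induction in the ratios of the 10 genes was not tested. Markers of other cells in listed basal-like cells differed too: 8 of 8 fibroblast markers were detected in each library, summing to 192 and 243 CPM, and 8 of 8 endothelial markers, summing to 17.0 and 9.84 CPM. Myeloid markers summed to 25.8 and 4.82 CPM, and pericyte and vascular smooth muscle markers to 7.27 and 13.3 CPM. Fibroblast-like cells themselves had 26780 and 24910 CPM of the fibroblast markers. The part of RNA of other cells was not tested.

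**Figure D4:**
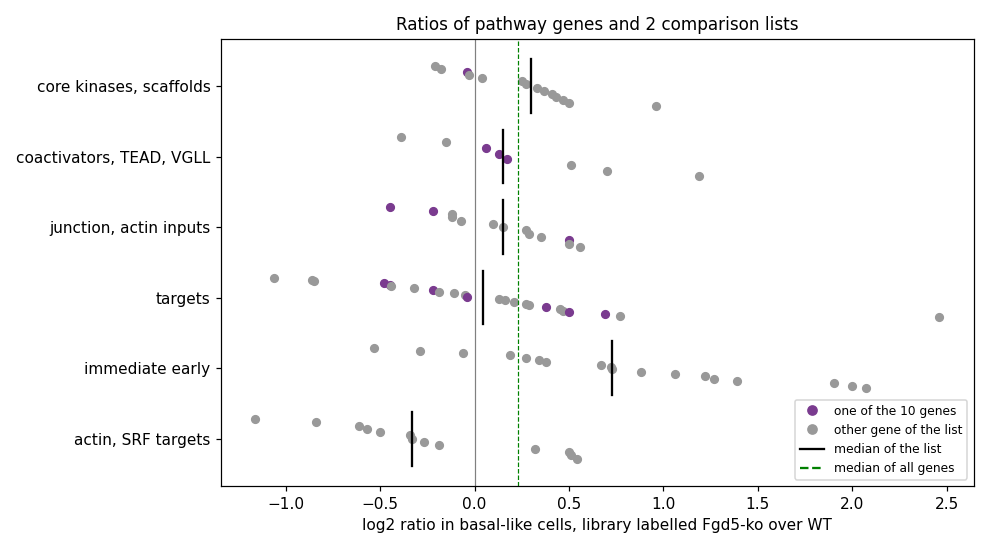
Log2 ratio in listed basal-like cells, library labelled Fgd5-ko over library labelled WT (x axis), of each measured gene of 6 lists (y axis), with the 10 genes in purple, the median of each list as a black line and the median of all genes (0.23) as a dashed line. Immediate early genes have a median of 0.72 and actin and SRF targets a median of -0.33, and the target list has its median at 0.04.

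Patterns over classes were compared as Pearson r of log2(CPM + 1) over 13 class-by-library sums, among 5201 genes that reached 50 CPM in at least 1 sum. Genes with the most similar pattern were Unc45a, Eif3b and Ptbp2 for Yap1 (r of 0.933, 0.927 and 0.920) and Klf7, Ptprg and Rapgef2 for Wwtr1 (0.983, 0.975 and 0.958). For Tead1 they were Phlda3, Flna and Egr2 (0.967, 0.955 and 0.955). Epb41l2, Pxdn and Peli2 came nearest to Cyr61 (0.95, 0.949 and 0.945), and Rbbp8, Erf and Syncrip to Ctgf (0.955, 0.949 and 0.936). None of the 10 genes was among the 3 nearest of these 5. Over 43 cluster-by-library sums Lats2 and Wwtr1 had an r of 0.80, Amotl2 and Cyr61 0.72, Tead1 and Yap1 0.66 and Cyr61 and Ctgf -0.10. Over the 13 class sums these pairs had an r of 0.92, 0.92, 0.78 and 0.36. Wwtr1 and Yap1 had an r of 0.02 over the cluster sums and -0.13 over the class sums. The sums share 2 libraries and their depths, so these values describe the sums and carry no test.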

How the data were processed

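PolyA RNA of single cells was counted in 2 libraries, 1 per genotype label. The deposited values are raw UMI counts for each gene in each barcode, written by a Cell Ranger program of version 3.1.0, per the file headers. Per the submitters' processing notes, the build was mm9 and the tools were Seurat 3.0 and Cell Ranger; the aligner and annotation were not given in the sources used here. A deposited list of barcodes defined the listed cells, and its coordinates were not used as measurements. All columns were mapped to a sample.

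Barcodes on that list were clustered over both libraries. Those outside it were clustered separately after a filter for 1000 UMIs, 500 genes and a mitochondrially encoded share of 15% or less. Clustering used counts scaled to 10000, 2000 variable genes, 30 components, 15 neighbours and Leiden resolution 1, with no batch correction, and gave 15 and 28 clusters. Clusters were called X-like from 12 marker lists. The naming limits were a log2 margin of 1 over the next list with 3 markers in 10% of cells or more, or 2 markers among the leading genes. The margin did not name a cluster whose leading genes held more markers of another list than of the best list. These limits and a check for vessel genes were set after the data were seen. Clusters that missed them stayed unnamed, among them the listed cluster A10 of 224 cells. A10 met the margin for basal markers, but its leading genes held the endothelial marker Pecam1 and no basal marker. Doublets were not called and remain in the data.

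UMIs were summed by class or cluster within a library, and CPM is relative to the total of that sum. Poisson, Clopper-Pearson and exact conditional intervals at 95% cover counting error only. The conditional interval was tested on simulated counts. Shares used cells thinned to 2000 UMIs.

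The genes and lists were chosen with earlier results of these data known. Named are the 10 genes, from every other list the 3 genes with the greatest size of log2 ratio at a mean of 20 CPM or more, the 3 nearest in pattern to Yap1, Wwtr1, Tead1, Cyr61 and Ctgf, and genes that lead clusters. Some genes that this rule names are not reported here. Alternatives were TMM (edgeR 4.0.16) and median-ratio scaling, another denominator, UMI ranges, cluster settings and limits on counts and folds. The alternatives with cluster A10, without A5, A6 or A4 and A5, and without each cluster of a class outside the table were chosen after seeing the data. Gene positions are from GENCODE and promoter sequences from RefSeq, both GRCm38. Scripts ran in R 4.3.3 and Python 3.11.15 with scanpy 1.11.5, leidenalg 0.10.2, igraph 0.11.9, scikit-learn 1.9.0, pandas 2.3.3, SciPy 1.17.1, NumPy 2.4.6 and matplotlib 3.10.9.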

Additional observations from a re-analysis of the deposited data

Results flagged for a closer look

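Cyr61 had opposite directions in different cell classes. Its log2 ratio, library labelled Fgd5-ko over library labelled WT, was -0.48 in listed basal-like cells and -0.28 in basal-like cells outside the authors' table, against 0.31 in endothelial-like and 0.07 in fibroblast-like cells. Each interval left out 0. The median of all genes was 0.05 in fibroblast-like and 0.11 in endothelial-like cells. The endothelial-like value was -0.11 (-0.25 to 0.03) without cluster B19. Within the endothelial-like cluster B4 the ratio was 0.62 (0.28 to 0.95). In fibroblast-like cells it was negative in 2 of the 3 clusters compared, B12 (-0.56) and B15 (-0.44). In B1 it was 0.89 (0.79 to 1.0). The fibroblast-like class value was -0.20 without B1, -0.13 without B8 and 0.18 without B12. The difference between classes was not tested, since each library is 1 sample.

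Amotl2 was picked out for the same reason. Its log2 ratio was -0.45 in listed basal-like cells, -0.58 in basal-like cells outside the table and -0.66 in fibroblast-like cells, against 0.78 in endothelial-like cells. These signs also stood within the endothelial-like cluster B4 (0.84) and the 3 fibroblast-like clusters. Without B19 the endothelial-like value was 0.60, and without B12 the fibroblast-like value was -0.55. This difference was not tested either.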

How the results depend on the processing

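Cyr61, Ctgf, Amotl2 and Ajuba kept their signs in listed basal-like cells over 14 settings, and the other 6 genes turned sign in at least 1. The number of the 10 genes at least 1.5-fold higher was 1 as reported, 0 with TMM, with median-ratio scaling, with the middle range of UMIs of each library (25th to 75th percentile) and without cluster A5, and 2 among cells of 4000 to 12000 UMIs and without cluster A6. The share of all genes that much higher was 18.8% to 19.2% with the 2 scalings, 27.5% in the middle range, 26.4% without A5, 23.8% among cells of 4000 to 12000 UMIs and 28.4% without A6. The number at least 1.5-fold lower was 0 as reported, 2 with TMM, with median-ratio scaling, in that middle range and without A5, and 1 at Leiden resolution 0.5, where 14.6%, 14.9%, 9.7%, 11.2% and 10.9% of all genes were that much lower. With TMM the 2 were Cyr61 (-0.64) and Amotl2 (-0.62). Ankrd1 was at -0.71 without A5, a cluster led by Ankrd1 and almost all from the numerator library, and at 1.01 without both A4 and A5.

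At a limit of 2-fold the counts of the lists were 0 higher for core kinases (also 0 at a mean of at least 20 CPM), 1 higher for coactivators, 1 higher and 1 lower for targets, 7 higher for immediate early genes and 1 lower for actin genes. Of all genes, 12% were 2-fold higher and 5.54% lower, and 20.3% of those at a mean of at least 20 CPM were 1.5-fold higher. Without B12, Ctgf in fibroblast-like cells was 0.25, and without B19, Ctgf in endothelial-like cells was 0.09. Without thinning, the difference in share of cells with a UMI turned positive for Cyr61 (16.6 percentage points), Amotl2 (12.8) and Ptpn14 (28.8). All 60 class levels stayed within their intervals under a stricter limit on barcodes outside the table. No paired analysis was possible because each group has 1 library. Median depth differed between the libraries, so depth, library preparation and genotype cannot be told apart. The causes of these shifts were not tested.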
